A study of Mus musculus with 6 samples.

Results

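The transcripts described here encode 7 transcription factors and cofactors of the megakaryocyte and erythroid lineages: Gata1, Zfpm1, Nfe2, Mafg, Gfi1b, Ldb1 and Cbfa2t3. They were chosen by gene symbol, and all 7 are among the 17500 genes of the authors' table for the series and the 55450 genes of the library tables. The libraries hold RNA of LT-HSCs, the long-term repopulating stem cells of the blood, from wild-type male C57/Bl6 mice aged 22 to 24 months. Cells were sorted as Lin-, Sca1+, cKit+, CD48- and CD150+, and 5000 cells were taken from each end of the CD61 surface range in mice 1, 2 and 3: the top 10% form CD61High and the bottom 10% CD61Low. CD61 is integrin beta 3, which pairs with integrin alpha IIb on megakaryocytes and platelets. The titles name 1 mouse per library and the protocol speaks of pools, so whether a number stands for 1 animal is not certain. No treatment is named for either group, and no young animals were analysed here.

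GATA1 is the zinc finger factor that megakaryocytes and red cell precursors need to mature, and FOG1, the product of Zfpm1, is the cofactor through which it acts at many of its targets. NFE2 is the lineage-restricted large subunit of NF-E2 and binds DNA as a pair with a small Maf protein such as MAFG; in mice, NFE2 is needed for platelet release. GFI1B is a zinc finger repressor that recruits the LSD1-CoREST complex. LDB1 is an adaptor that joins GATA factors, TAL1 and LMO2 into a complex and holds enhancers and promoters together, and ETO2, the product of Cbfa2t3, is a corepressor bound to that complex. LT-HSCs carry transcripts of several of these genes before any lineage choice, and part of the LT-HSC pool is known to be biased towards platelets.

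The 6 libraries held 21354130 to 26398090 counts on genes. All 12 genes of the HSC marker list, which counts Cd48 as its negative marker, were detected in each library. For mouse 2 the list made up 0.181% (CD61High) and 0.120% (CD61Low) of counts, against 0.348% to 0.4997% for mice 1 and 3, with Kit at 576 to 1965 CPM, the counts per library rescaled by its total and adjusted by TMM, and Slamf1, which encodes CD150, at 36.1 to 135 CPM. Both libraries of mouse 2 stood apart: neutrophil markers made up 8.29% (CD61High) and 13.3% (CD61Low) of its counts, against 0.0912% to 2.56% in mice 1 and 3. Erythroid markers took 1.48% and 2.81% in mouse 2, against 0.0608% to 0.334% in the other mice. Cd48, against which the cells were sorted, was at 59.9 and 130 CPM in mouse 2 and at 1.07 to 29.6 CPM in mice 1 and 3. Results that rest on mouse 2 are therefore given with and without it. In bulk RNA, fewer cells that carry a transcript and less of it per cell cannot be told apart.

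None of the 7 factors was called as different between CD61High and CD61Low. The test was edgeR's quasi-likelihood test over 15610 genes, adjusted by Benjamini-Hochberg, with a call at an adjusted p under 0.05; it called 0% of all genes, and limma voom also called 0. Of the 7 factors, 0 had an unadjusted p under 0.05, against 6.55% of all genes. With the mouse as a block in edgeR, 0 of the 7 and 0.256% of all genes were called, and 3 of the 7 (Mafg, Gfi1b and Cbfa2t3) had an unadjusted p under 0.05, against 20.8% of all genes. Within mice, Gfi1b was higher in CD61High in 3 of 3 mice, where 20.6% of all genes were. In TMM-adjusted CPM, Nfe2, Mafg and Cbfa2t3 were lower in CD61High in 3 of 3 mice, where 24.7% of all genes were. By counts over library totals alone, Cbfa2t3 of mouse 2 was higher in CD61High, at 1843 of 24799800 against 1880 of 26398090. Gata1, Zfpm1 and Ldb1 differed in sign between mice. Over the 7 factors the median log2 fold change was -0.092, and over all genes tested it was -0.048.

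**Figure D1:**
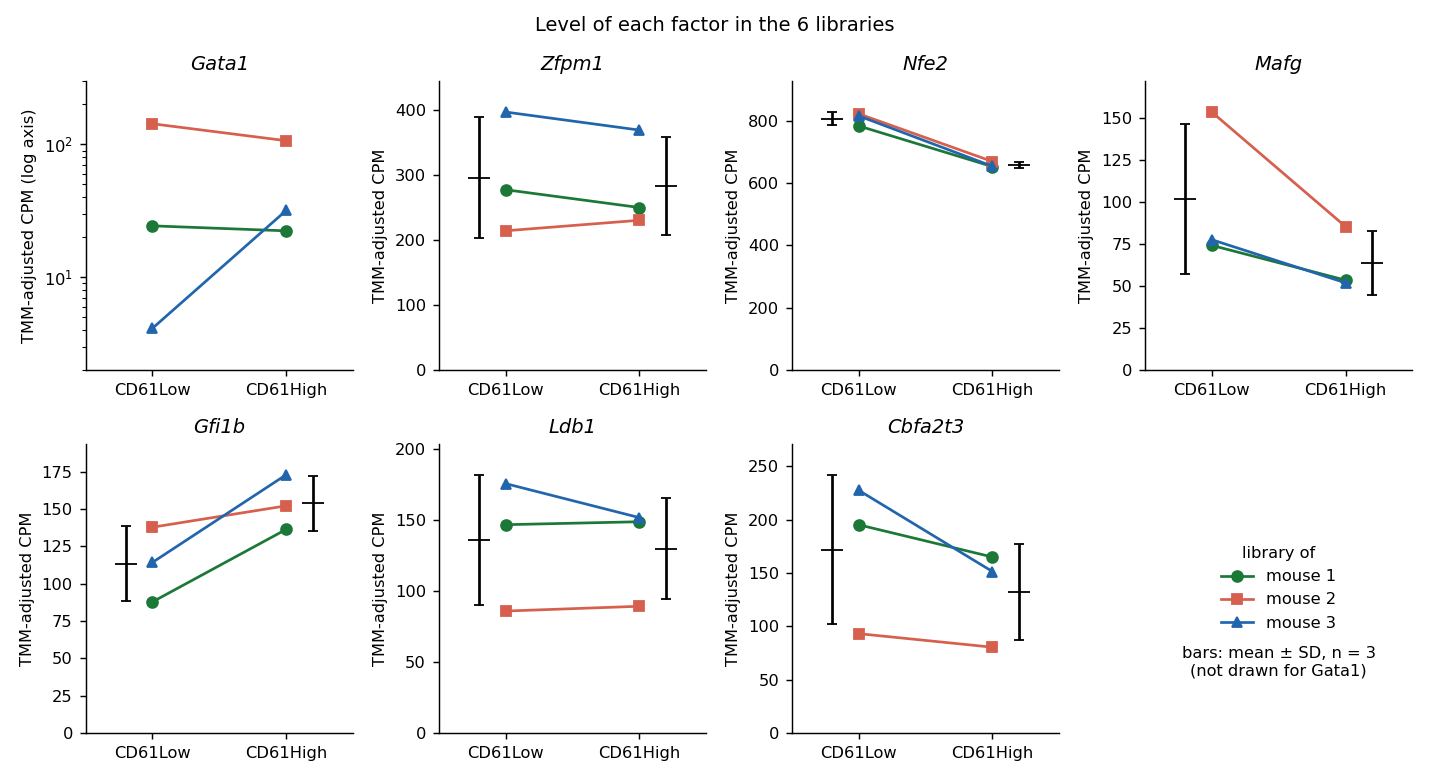
Level of each factor (TMM-adjusted CPM) in CD61Low and CD61High, with a line joining the libraries of each mouse and black bars for the mean ± SD (n = 3; not drawn for Gata1, which has a log axis). The Nfe2 libraries fall into 652 to 669 CPM in CD61High and 783 to 822 CPM in CD61Low, the Gfi1b lines all go up, and the Gata1 line of mouse 3 goes up while those of mice 1 and 2 go down.

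Gata1 (ENSMUSG00000031162.14; GRCm38 chromosome X, 7959260 to 7978071) varied most among the 7, over a 34.6-fold range between libraries. It stood at 22.4, 107 and 31.9 CPM in CD61High of mice 1, 2 and 3 and at 24.4, 143 and 4.13 CPM in CD61Low. The libraries of mouse 2 were the highest, CD61Low of mouse 3 was the lowest at 111 counts, and the groups overlapped throughout. In mice 1 and 2, CD61Low was 1.09-fold and 1.34-fold above CD61High. In mouse 3, CD61High was 7.71-fold above CD61Low, a difference seen in this mouse alone and so without a replicate. Its mean was 53.6 ± 46.2 CPM (SD, n = 3) for CD61High and 57.2 ± 75.1 for CD61Low. The log2 fold change was -0.092 (SE 1.23, adjusted p = 0.990 in edgeR). Its 95% interval of -3.11 to 2.92 does not exclude large differences in either direction. With the mouse as a block the sign turned, to 0.66 (SE 0.69, adjusted p = 0.625), and without mouse 2 the blocked value was 1.34 (SE 0.95, adjusted p = 0.465).

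The levels of Gata1 were read beside markers of cells that express it. All 13 erythroid markers were detected in every library, and in each mouse their sum was smaller in CD61High: 0.108% of counts against 0.334% for mouse 1, 1.48% against 2.81% for mouse 2, and 0.0608% against 0.110% for mouse 3. In mouse 3, the higher Gata1 of CD61High went with fewer erythroid marker counts. Klf1, which encodes an erythroid factor that acts with GATA1, was at 5.17 CPM in CD61High and 7.60 CPM in CD61Low of mouse 3. Epor, which encodes the erythropoietin receptor, was at 37.0 and 10.9 CPM there; both genes were chosen after their values were seen. The 13 mast cell, basophil and eosinophil markers, of cells that also use GATA1, took 0.226% (CD61High) and 0.236% (CD61Low) of the counts of mouse 2. The same shares were 0.00370% and 0.0656% for mouse 1 and 0.00156% and 0.000797% for mouse 3. Between 7 and 11 of the 13 were detected in a library, and Tpsb2 and Mcpt4 were at 0 in all 6. The part of such cells in the high Gata1 of mouse 2 was not tested.

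**Figure D2:**
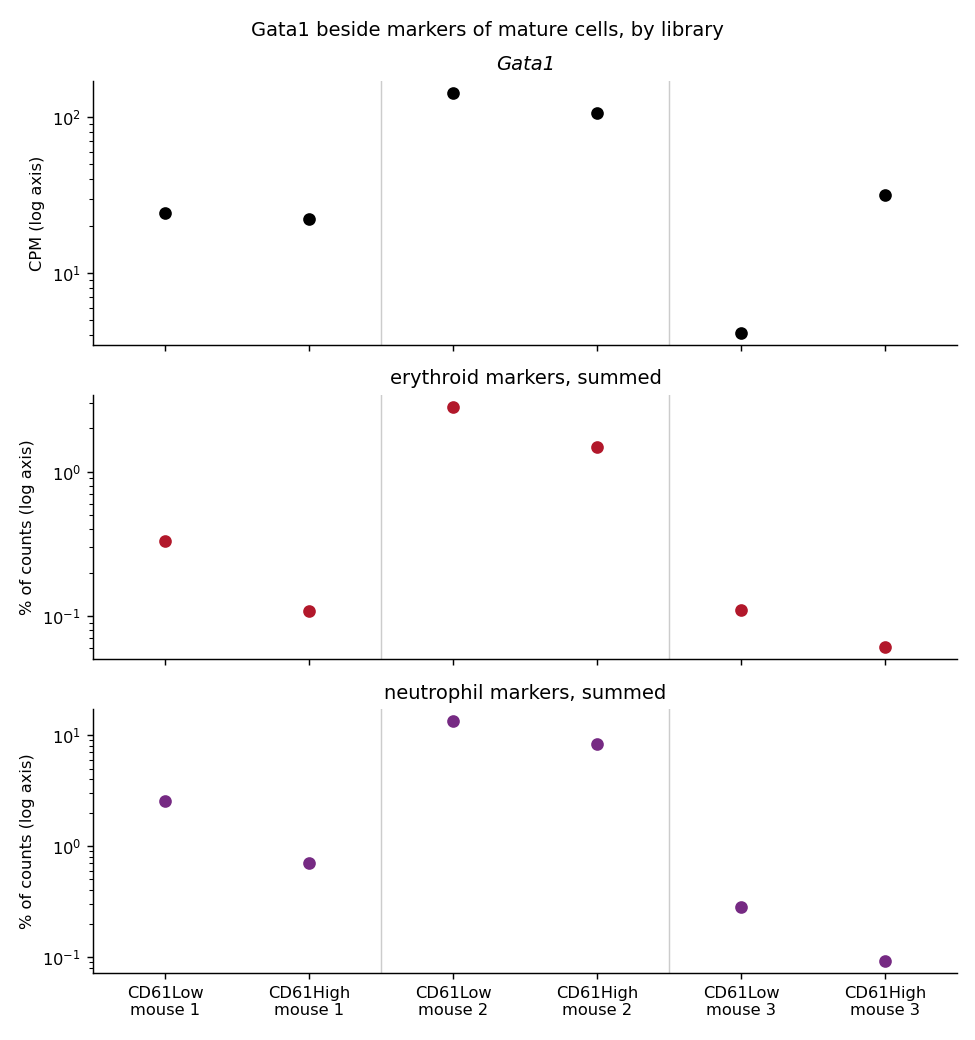
Gata1 (TMM-adjusted CPM) and the summed counts of erythroid and neutrophil markers (percent of the counts of a library) in each of the 6 libraries, all on log axes. All 3 measures are highest in mouse 2, and in mouse 3 Gata1 is higher in CD61High, at 31.9 against 4.13 CPM, while both marker sums are lower there.

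Zfpm1 (ENSMUSG00000049577.15; chromosome 8, 122282141 to 122337251), the gene of FOG1, stood at 250.4, 231 and 369.5 CPM in CD61High and 278, 215 and 397 CPM in CD61Low of mice 1, 2 and 3. Mouse 3 was the highest in both gates, and within each mouse the libraries were close. The means were 284 ± 75.1 CPM (SD, n = 3) and 297 ± 92.8 CPM. Its log2 fold change was -0.065 (SE 0.30, adjusted p = 0.972 in edgeR), with a 95% interval of -0.79 to 0.66 that narrowed to -0.36 to 0.26 with the mouse as a block. While Gata1 in mouse 3 moved 7.71-fold, its cofactor differed 1.08-fold between the same libraries, in the other direction.

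Nfe2 (ENSMUSG00000058794.12; chromosome 15, 103248212 to 103258403) varied least among the 7. It stood at 652, 669 and 653 CPM in CD61High of mice 1, 2 and 3 and at 783, 822 and 815 CPM in CD61Low. The groups did not overlap, which was also so in the lower direction for 5.71% of all genes. The ratio of its highest to its lowest library was 1.26, and 3.62% of tested genes had a smaller ratio. The means were 658 ± 9.11 CPM (SD, n = 3) and 806 ± 20.8 CPM, and CD61Low exceeded CD61High 1.20-fold, 1.23-fold and 1.25-fold in mice 1, 2 and 3. Its log2 fold change was -0.29 (SE 0.13, 95% interval -0.61 to 0.027), and it was not called (unadjusted p = 0.0665, adjusted p = 0.752 in edgeR). In TMM-adjusted CPM mouse 2, which stood apart in its neutrophil and erythroid markers, did not stand apart in this gene. The evenness and the lack of overlap depend on TMM, whose factor was 0.767 for CD61Low of mouse 2 and 0.926 to 1.11 elsewhere. By counts over library totals alone, mouse 2 was lowest in both gates and the groups overlapped. CD61Low of mouse 2 held 16601 of 26398090 counts, and CD61High of mouse 1 held 15162 of 21354130. With library sizes alone the log2 fold change was -0.22 (SE 0.21, adjusted p = 0.994 in edgeR).

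Mafg (ENSMUSG00000051510.13; chromosome 11, 120625117 to 120633600), the small Maf partner, stood at 53.5, 85.3 and 51.9 CPM in CD61High of mice 1, 2 and 3 and at 74.2, 153 and 77.5 CPM in CD61Low. CD61Low of mouse 2 was the highest library, the groups overlapped because CD61High of mouse 2 lay above CD61Low of mice 1 and 3, and CD61Low was higher within each mouse. The means were 63.5 ± 18.8 CPM (SD, n = 3) and 102 ± 44.8 CPM. The log2 fold change was -0.68 (SE 0.36, adjusted p = 0.796 in edgeR). The block moved it to -0.63 (SE 0.14, unadjusted p = 0.00317, adjusted p = 0.0833), also not a call. DESeq2 with the block called it (adjusted p = 0.00299), in a fit that called 7.11% of all genes as lower. Without CD61Low of mouse 2 the unblocked value shrank to -0.25. Sirt7 shares 2.21% of the exon bases of Mafg, and without strand these reads cannot be assigned.

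Gfi1b (ENSMUSG00000026815.14; chromosome 2, 28609450 to 28621982) was the single factor of the 7 that was higher in CD61High in 3 of 3 mice. It stood at 136, 152 and 173 CPM in CD61High of mice 1, 2 and 3 and at 87.7, 138 and 114 CPM in CD61Low. In TMM-adjusted CPM the groups overlapped by the narrow margin between CD61High of mouse 1 (136 CPM) and CD61Low of mouse 2 (138 CPM). The overlap and the small difference in mouse 2 depend on TMM, whose factor for that CD61Low library, 0.767, was the lowest. The means were 154 ± 18.4 CPM (SD, n = 3) and 113 ± 25.0 CPM, and CD61High exceeded CD61Low 1.55-fold, 1.10-fold and 1.51-fold in mice 1, 2 and 3. The log2 fold change was 0.44 (SE 0.21, unadjusted p = 0.0778, adjusted p = 0.758 in edgeR). The block moved it to 0.46 (SE 0.15, unadjusted p = 0.0197, adjusted p = 0.165). Without mouse 2, the blocked fit in edgeR called Gfi1b as higher, at 0.60 (SE 0.11, adjusted p = 0.0496), and it called 1.85% of all genes as higher there. That call lies just under the threshold and rests on 4 libraries.

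**Figure D3:**
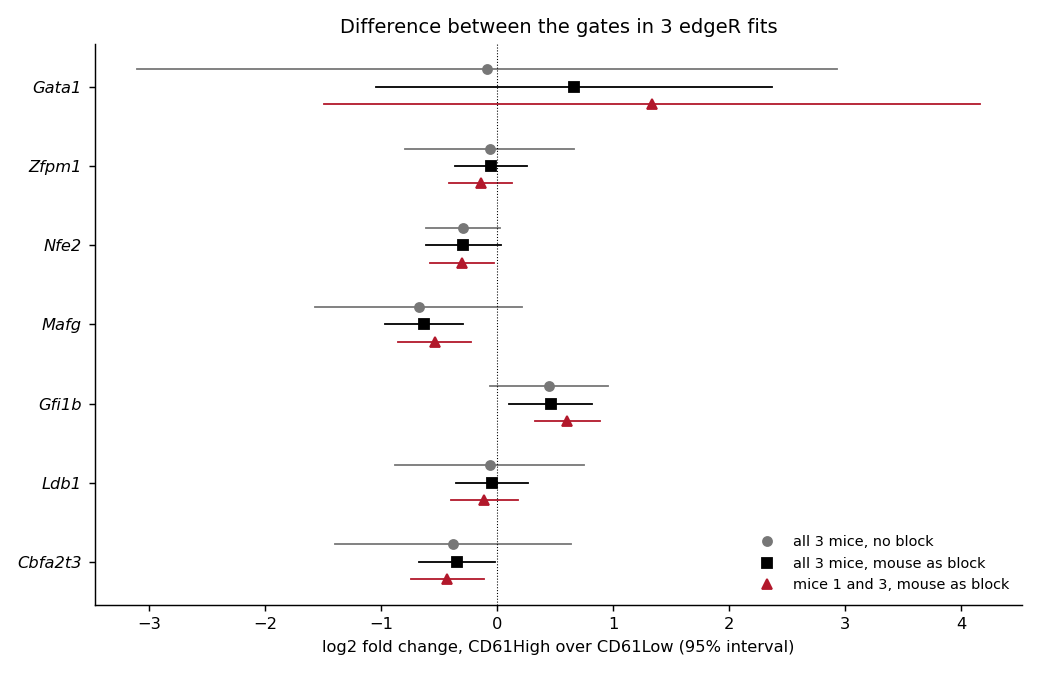
Log2 fold change of each factor, CD61High over CD61Low, with its 95% interval in 3 edgeR fits: all 3 mice without a block, all 3 mice with the mouse as a block, and mice 1 and 3 with the block. The intervals are unadjusted; with the block that of Mafg runs from -0.97 to -0.30 and that of Gfi1b from 0.10 to 0.82, and the Gata1 intervals are the widest.

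Ldb1 (ENSMUSG00000025223.15; chromosome 19, 46031570 to 46045214) stood at 149, 89.2 and 152 CPM in CD61High of mice 1, 2 and 3 and at 147, 85.9 and 176 CPM in CD61Low. Both libraries of mouse 2 were the lowest, and the gates overlapped. The means were 129.9 ± 35.3 CPM (SD, n = 3) and 136 ± 45.9 CPM, with a log2 fold change of -0.067 (SE 0.33, adjusted p = 0.975 in edgeR) and a 95% interval of -0.88 to 0.75, or -0.36 to 0.26 with the mouse as a block. Cbfa2t3 (ENSMUSG00000006362.16; chromosome 8, 122625141 to 122699109) stood at 165, 80.4 and 151 CPM in CD61High and at 195, 93.1 and 227 CPM in CD61Low. It too was lowest in both libraries of mouse 2, and after TMM CD61Low was higher within each mouse, 1.18-fold, 1.16-fold and 1.50-fold. For mouse 2 that direction depends on TMM, since by counts over library totals alone its CD61High was the higher. Its means were 132 ± 45.4 CPM and 172 ± 70.2 CPM (SD, n = 3), and its log2 fold change was -0.38 (SE 0.42, adjusted p = 0.937 in edgeR). The block moved it to -0.35 (SE 0.14, unadjusted p = 0.0417, adjusted p = 0.222), with a 95% interval of -0.68 to -0.018, not a call. Pprc1 shares 3.84% of the exon bases of Ldb1 and Gm10612 3.52% of those of Cbfa2t3, while Gata1, Zfpm1, Nfe2 and Gfi1b share 0% with other genes.

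Promoter sequence is shown for the 3 genes whose promoters hold a GATA motif, the letters that GATA1 and its relative GATA2 bind. RefSeq promoters of 300 bases on GRCm38.p6 (250 bases before to 50 after a start) were found for 6 of the 7 factors, 9 promoters in all. The motif was searched on both strands as AGATAA or TGATAA, and also as AGATAG or TGATAG, and 29.8% of the 32851 promoters of the table hold it. Capitals mark it, or its reverse complement, in the promoter of Gfi1b (chr2:28621933-28622232, minus strand), in 1 of the 3 promoters of Ldb1 (chr19:46037021-46037320, minus strand) and in 1 of the 2 promoters of Cbfa2t3 (chr8:122699060-122699359, minus strand).
Gfi1b: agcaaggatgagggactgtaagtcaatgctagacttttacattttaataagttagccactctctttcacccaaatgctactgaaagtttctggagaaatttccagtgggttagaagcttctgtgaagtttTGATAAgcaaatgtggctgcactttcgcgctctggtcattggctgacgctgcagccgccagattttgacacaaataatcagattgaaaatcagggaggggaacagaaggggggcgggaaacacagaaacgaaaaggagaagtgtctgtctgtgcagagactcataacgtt
Ldb1: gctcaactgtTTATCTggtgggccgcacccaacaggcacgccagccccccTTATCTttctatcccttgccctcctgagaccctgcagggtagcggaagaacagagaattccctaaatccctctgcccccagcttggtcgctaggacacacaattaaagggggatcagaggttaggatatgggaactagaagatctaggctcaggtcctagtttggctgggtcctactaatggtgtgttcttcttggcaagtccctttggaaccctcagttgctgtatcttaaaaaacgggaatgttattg
Cbfa2t3: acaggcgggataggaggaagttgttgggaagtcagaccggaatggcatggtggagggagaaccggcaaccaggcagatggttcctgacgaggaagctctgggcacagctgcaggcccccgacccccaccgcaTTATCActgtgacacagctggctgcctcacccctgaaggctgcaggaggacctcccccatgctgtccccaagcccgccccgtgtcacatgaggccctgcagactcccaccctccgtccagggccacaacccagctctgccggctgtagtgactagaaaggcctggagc
The match begins at position -120 from the start in Gfi1b, at -240 and -200 in Ldb1 and at -118 in Cbfa2t3. The promoters of Gata1, Zfpm1 and Mafg hold none. The NF-E2 motif TGANTCA was in 0 of the 9 promoters and in 7.81% of all. The E-box CANNTG, the letters that TAL1 and its partners bind, occurred 2, 2 and 4 times in the promoters of Gfi1b, Ldb1 and Cbfa2t3 shown, and 72.3% of all promoters hold it. The core AATC, bound by GFI factors, occurred 4 times in that of Gfi1b, and 73.1% of all promoters hold it. No GATA match overlapped another of these motifs. Of the genes with a match, in TMM-adjusted CPM Gfi1b was higher in CD61High and Cbfa2t3 lower in each mouse, and Ldb1 differed in sign between mice.

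Levels between genes were compared per kilobase of exon. Nfe2 was the most abundant of the 7, at a mean of 245 CPM per kilobase over the 6 libraries, with every library between 218 and 275. Zfpm1 (82.8; 61.3 to 113) and Gfi1b (72.9; 47.9 to 94.5) followed, and the ranges of these neighbours overlapped. Ldb1 (28.9; 18.6 to 38.1), Gata1 (22.7; 1.70 to 58.7), Cbfa2t3 (18.2; 9.60 to 27.2) and Mafg (14.7; 9.24 to 27.3) came last with overlapping ranges. NFE2 and its small Maf partner thus differed widely in transcript level, 245 against 14.7 CPM per kilobase. Before scaling by length, Mafk, another small Maf gene, averaged 67.1 ± 19.3 (CD61High, SD, n = 3) and 82.4 ± 16.4 CPM (CD61Low). Mafg was close to it on that scale, at 63.5 ± 18.8 and 102 ± 44.8 CPM. The exons of Mafk span 3901 bases and those of Mafg 5613.

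Each of 4 factors was then set against a relative in the same library, as a log2 ratio of counts (2 added to each), which does not depend on how libraries are scaled. Gfi1b was set against its close relative Gfi1. The log2 ratio was 3.51, 2.45 and 3.60 in CD61High of mice 1, 2 and 3 and 1.38, 1.35 and 1.41 in CD61Low. The groups did not overlap, and the ratio was nearly equal in the CD61Low libraries of all 3 mice, at 1.38 ± 0.029 (SD, n = 3) against 3.19 ± 0.64 in CD61High. The difference of 1.81 gave p = 0.1 in an exact two-sided permutation test, the smallest that 3 against 3 libraries allow, and 0.40 after adjustment over the 4 ratios, with the same direction in 3 of 3 mice. The numerator had a log2 fold change of 0.44 and the denominator of -1.28 (SE 0.38, adjusted p = 0.676 in edgeR). Gfi1 stood at 11.9, 27.7 and 14.2 CPM in CD61High and at 33.6, 54.0 and 43.0 CPM in CD61Low. With the mouse as a block Gfi1 just missed the call in edgeR, at a log2 fold change of -1.35 (SE 0.19, adjusted p = 0.0512), and without mouse 2 the block called it as lower, at -1.57 (adjusted p = 0.0209; 2.93% of all genes were called as lower there). Neutrophil markers, of cells in whose precursors Gfi1 is used, were lower in CD61High in each mouse as well (0.703% against 2.56%, 8.29% against 13.3% and 0.0912% against 0.284% of counts), and their part in the ratio was not tested.

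Gata1 against Gata2, the GATA factor of stem and progenitor cells, had a log2 ratio of -4.37, -1.42 and -4.55 in CD61High and of -4.29, -0.33 and -7.30 in CD61Low of mice 1, 2 and 3. Gata2 counts exceeded Gata1 counts in all 6 libraries. The ratio was highest in mouse 2, lowest in CD61Low of mouse 3, and higher in CD61High in mouse 3 but not in mice 1 and 2. Its exact permutation p was 1.0. Nfe2 against Bach1, the gene of a repressor that also pairs with small Mafs, was at 6.55 ± 0.33 (SD, n = 3) in CD61High and 6.15 ± 0.37 in CD61Low (exact permutation p = 0.3), and Mafg against Mafk at -0.079 ± 0.197 and 0.24 ± 0.33 (exact permutation p = 0.2), lower in CD61High in 3 of 3 mice. After adjustment over the 4 ratios, the smallest p was 0.40.

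**Figure D4:**
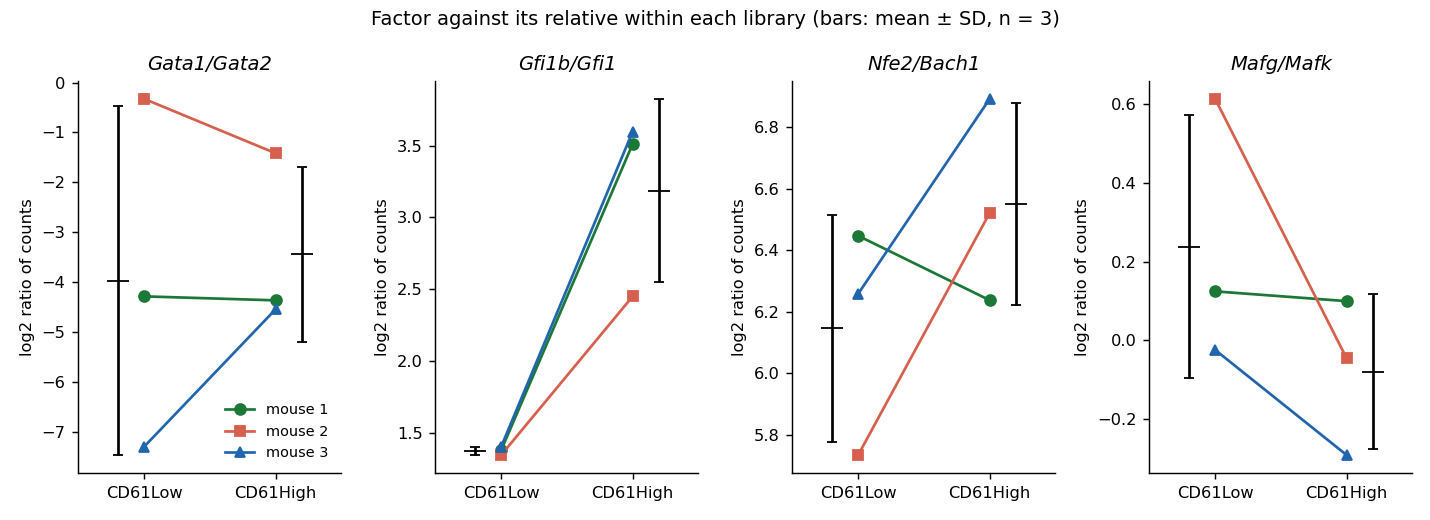
Log2 ratio of the counts of a factor to those of its relative in each library, with a line joining the libraries of each mouse and bars for the mean ± SD (n = 3). For Gfi1b over Gfi1 the CD61Low libraries lie together at 1.35 to 1.41 and the CD61High libraries at 2.45 to 3.60; the other ratios overlap between the gates.

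The relatives of the 7 factors, 12 of 14 of which could be tested, had a median log2 fold change of -0.25, against -0.048 over all genes. In edgeR with TMM none of them was called on all 6 libraries, blocked or not. With the block, relative log expression factors gave 1 call as lower, in a fit that called 88 of 15610 genes in either direction. DESeq2 with the block gave 3, where it called 7.11% of all genes as lower. Without CD61Low of mouse 2 the median was -0.45, and without mouse 2 it was -0.40. In all, 7 were lower in CD61High in 3 of 3 mice, where 24.7% of all genes were, and 0 were higher. Beside Gfi1, the relatives with the smallest p with the block were Runx1t1, a paralog of Cbfa2t3, Bach2, a repressor of the NF-E2 family known from lymphocytes, and Bach1. Without mouse 2 the block called 3 as lower: Gfi1, Bach2 at -1.44 (adjusted p = 0.0428 in edgeR) and Runx1t1 at -0.86 (adjusted p = 0.0488). That fit called 2.93% of all genes as lower. Bach2 stood at 5.16, 13.1 and 7.27 CPM in CD61High and at 16.0, 21.3 and 17.0 CPM in CD61Low, and these groups did not overlap. In this direction that was so for 3 of the 12 relatives and for 5.71% of all genes. Bach1 was at 7.06 ± 1.57 CPM (SD, n = 3) against 11.6 ± 3.34 CPM.

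Of the 15 partners in the TAL1-LDB1 complex none was called in edgeR, with or without the block or mouse 2, and their median log2 fold change was -0.069. Cbfb, the partner subunit of RUNX1, averaged 280.2 ± 46.1 CPM for CD61High and 185 ± 37.7 for CD61Low (SD, n = 3), and Ssbp4, of the family that stabilises LDB1, averaged 103 ± 14.8 and 67.8 ± 7.84 CPM. Both were higher in 3 of 3 mice with groups that did not overlap, which was so in this direction for 8.62% of all genes, at log2 fold changes of 0.60 (SE 0.22, adjusted p = 0.725 in edgeR) and 0.60 (SE 0.17, adjusted p = 0.676), or adjusted p = 0.0788 and 0.0930 with the block. Lmo4 and Irf2bp2, a LIM-only protein and a partner of ETO2, were at -0.95 (SE 0.73) and -0.36 (SE 0.77). In TMM-adjusted CPM both were lower in CD61High in 3 of 3 mice, as were 4 of the 15 partners and 24.7% of all genes. The log2 differences within mice 1, 2 and 3 were -0.27, -1.33 and -0.40 for Lmo4 and -1.71, -0.21 and -0.15 for Irf2bp2. Without mouse 2, Lmo4 was at -0.35 with the block. By counts over library totals alone, Irf2bp2 of mouse 2 was higher in CD61High, at 5534 of 24799800 against 5646 of 26398090. Gm26759 shares 20.5% of the exon bases of Irf2bp2. Of the 19 genes of the corepressor machinery that GFI1B, FOG1 and ETO2 recruit, none was called in these fits either, and the median was 0.025. DESeq2 with the block called 2 of the partners and 1 corepressor gene as higher, where it called 2.92% of all genes as higher. In CD61High, 7 of the 19 corepressor genes were higher in 3 of 3 mice, where 20.6% of all genes were, and 0 were lower. Of the 19, 4 were higher in CD61High without overlap of the groups, where 8.62% of all genes were. Among these 4 were the histone deacetylase genes Hdac2 and Hdac3, at 267 ± 51.0 against 195 ± 3.84 CPM and 187 ± 18.7 against 146 ± 12.8 CPM (SD, n = 3). The NuRD subunits Mbd3 and Rbbp7 were at 0.41 (SE 0.20) and 0.42 (SE 0.21) on the log2 scale.

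Of 20 megakaryocyte targets tested, 3 rose in CD61High with the mouse as a block in edgeR and none fell, in a fit that called 0.256% of all genes. They were Itga2b, the gene of integrin alpha IIb, at a log2 fold change of 2.42 (adjusted p = 0.0308), and Gp5 and Gp9, which encode parts of the von Willebrand factor receptor, at 1.50 and 1.42 (adjusted p = 0.0436 each); without the block none passed (adjusted p = 0.652 for each). The 3 calls of the blocked fit became 1 with upper-quartile factors, 0 with library sizes alone, 0 without mouse 1, 4 without mouse 2 and 1 without mouse 3. Over all genes these blocked fits called 8, 0, 0, 742 and 7, in the same order, out of 15548 to 16106 tested. DESeq2 called 5 as higher without the block, where it called 0.826% of all genes as higher. With the block DESeq2 called 8 as higher and 1 as lower, where it called 2.92% of all genes as higher and 7.11% as lower. Treml1, a receptor of platelet granules, averaged 12.7 ± 2.63 CPM for CD61High and 5.17 ± 0.57 for CD61Low (SD, n = 3), with an adjusted p of 0.0721 in edgeR with the block. The median of the list was 0.11, or 0.010 without mouse 2. In CD61High, 8 of its genes were higher in 3 of 3 mice, against 20.6% of all genes, and 6 were higher without overlap, against 8.62%. The 3 that were lower in 3 of 3 mice, against 24.7% of all genes, were Thbs1, Clec1b and Myl9, named after their values were seen. Of 32 erythroid targets, edgeR with TMM called none on all 6 libraries, with or without the block. With the block, relative log expression factors gave 3 calls as lower, in a fit that called 88 of 15610 genes in either direction. DESeq2 with the block gave 16, where it called 7.11% of all genes as lower. The median of the list was -0.80, or -0.95 with the block. The unblocked median rested on single libraries: it was -3.40 without CD61High of mouse 2, 1.28 without CD61Low of mouse 2, -0.33 without CD61High of mouse 1, -0.26 without CD61High of mouse 3 and -1.29 without CD61Low of mouse 3. In CD61High, 18 of the 32 were lower in 3 of 3 mice, where 24.7% of all genes were, and 0 were higher. Slc25a37, the mitochondrial iron importer, and Rhd, a blood group gene, had log2 fold changes of -1.06 and -1.38 with the block, both at an adjusted p of 0.0512 in edgeR, and Kel, a blood group antigen gene, -1.29 (adjusted p = 0.0552). Without mouse 2 the block called 8 of the 32 as lower and 0 as higher, where it called 2.93% of all genes as lower. Erythroid markers, 11 of 13 of which are also in this list, ran from 0.0608% to 2.81% of counts over the libraries and were lower in CD61High in each mouse, and their part in the list was not tested.

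**Figure D5:**
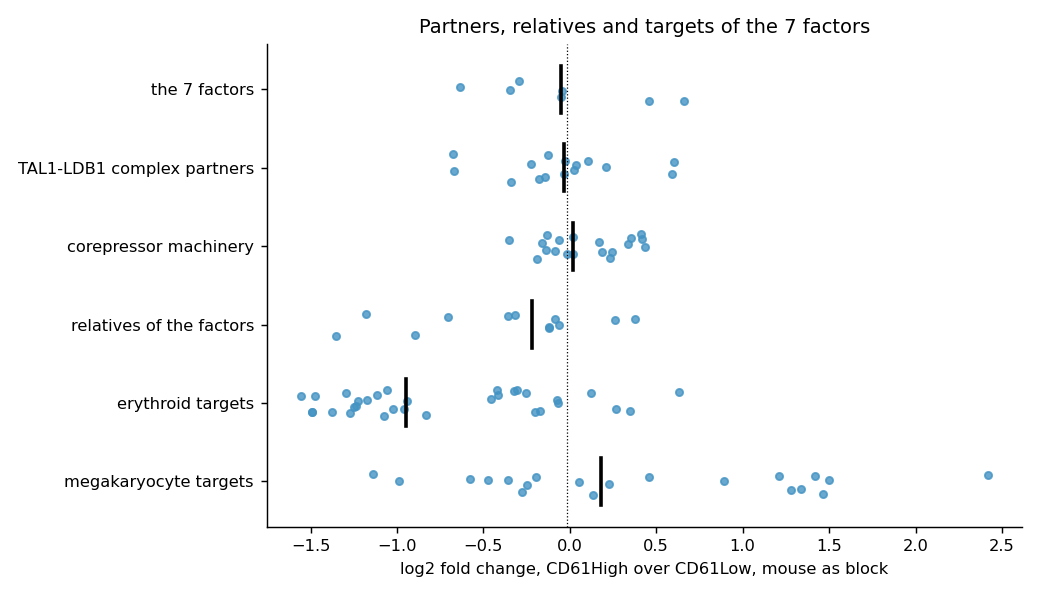
Log2 fold change of each tested gene, CD61High over CD61Low with the mouse as a block, for the 7 factors and for their partners, corepressors, relatives and targets; black bars are medians and the dotted line is the median of all genes tested. The erythroid targets have a median of -0.95, and Itga2b lies furthest to the right at 2.42.

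The genes whose pattern over the 6 libraries was most like that of each factor were named by Pearson's r of log2 CPM among 10614 genes; libraries of a mouse share that animal, and both libraries of mouse 2 share its marker levels, so r is a description of these libraries only. Gata1 was matched by Arhgap19, Acss1, an acetyl-CoA synthetase, and Ect2, a cytokinesis factor (r = 0.9997, 0.998 and 0.997). Ect2 stood at 33.3, 117 and 50.3 CPM in CD61High of mice 1, 2 and 3 and at 36.4, 129 and 9.09 CPM in CD61Low, with the same low library in mouse 3. Nfe2 was matched by Rasa4, Ccl4 and B4galt6 (r = 0.992, 0.991 and 0.988), of which Rasa4 and the chemokine gene Ccl4 had an adjusted p of 0.0512 and 0.0529 with the block. Mafg was matched by Mdm2, Ampd3 and Clcn3, Gfi1b by Ccdc115, Ssr1 and Ssbp1, Zfpm1 by Ahi1, Med15 and Ube3a, Ldb1 by Aebp2, Snx14 and Prkg1, and Cbfa2t3 by Mtfr1l, Nkx2-3 and Ccdc92, with r of 0.989 to 0.998. Among the factors themselves, Ldb1 and Cbfa2t3 were the pair most alike (r = 0.958), both with their lowest levels in mouse 2, and Gata1 and Cbfa2t3 the most opposed (r = -0.92).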

How the data were processed

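RNA of the 6 libraries was counted per gene. The values the authors deposited are raw, unstranded read counts. STAR 2.7 and MultiQC are named in the submitters' processing notes, as is edgeR. Which build and annotation they used is not given in the sources used here. All 55450 identifiers match GENCODE M21 (GRCm38), which gave symbols, positions and exon lengths. Per the labels' protocols, SMART-Seq v4 and Nextera XT were used, kits that do not mark strand. Rows without a gene were dropped before library sizes were summed: unmapped reads were 4.36% to 10.9%, multimapping 10.0% to 15.6%, outside genes 2.88% to 4.21% and ambiguous 3.55% to 4.37% of a library. All 15 library pairs differed by more than sampling noise (chi-square over degrees of freedom at least 40.6).

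From these counts, edgeR 4.0.16 in R 4.3.3 gave TMM-adjusted CPM and log2 fold changes (quasi-likelihood F-test, robust, genes filtered by group, two-sided, Benjamini-Hochberg over 15610 genes, residual df 4, or 2 with the mouse as a block). Standard errors come from the F statistic. limma 3.58.1 and DESeq2 1.42.0 were alternatives, as were other scaling factors, no filter, the block, and leaving out libraries or mice. The code was tested on simulated data. The pairing rests on the titles, which give both libraries of a number the same mouse. Deviations from the group means correlated at 0.236, 0.806 and 0.761 within mice 1, 2 and 3, and at -0.823 to 0.374 between gates of different mice. Only if the numbers are separate animals do p-values measure the spread between animals.

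The factors, gene lists, ratios and motifs were chosen with earlier results of these data known. The genes named are the 7 factors, the 4 genes per list with the smallest p with the block, the denominators of the ratios, and the 3 genes most like each factor among genes of at least 5 CPM; exceptions are said to be such, and 1 gene that the rule names is not reported here. All 179 list symbols matched.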

Additional observations from a re-analysis of the deposited data

How the results depend on the processing

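Without a block, edgeR called 0 genes (1023 at an unadjusted p under 0.05, and 1148 in limma voom, which also called 0), and DESeq2 called 237. With the mouse as a block, 40 were called, 1566 with the block in DESeq2, 133 without mouse 2, 742 without mouse 2 and with the block, and 7 without mouse 3 and with the block. Blocked fits with relative log expression and upper-quartile factors, chosen after seeing the data, called 88 and 8, and the blocked fit with library sizes alone, chosen likewise, called 0, which ends all 40 calls. Without mouse 1, 0 were called with or without the block, and leaving out 1 library called 0. Of the 7 factors, 1 was called by DESeq2 with the block (Mafg, -0.66) and 1 without mouse 2 with the block (Gfi1b, 0.60). Nfe2, Mafg, Gfi1b and Cbfa2t3 kept their sign in all 23 alternatives (-0.32 to -0.21, -0.95 to -0.25, 0.28 to 0.61 and -0.68 to -0.12).

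Gata1 turned positive with library sizes alone (0.17), limma voom (0.92), the block (0.66; 0.68 in DESeq2; 0.64, 0.66 and 0.77 with relative log expression, upper-quartile and library-size scaling), without mouse 1 with the block (1.20), and without mouse 2 (0.91; 1.34 with the block). It ran from -1.08 to 1.91 with 1 library left out, Zfpm1 from -0.31 to 0.17 and Ldb1 from -0.31 to 0.14. With the block and library sizes alone, Zfpm1 was 0.036 and Ldb1 0.040; without mouse 3, Ldb1 was 0.0076, or 0.034 with the block. The Gata1 to Gata2 ratio difference ran from -1.14 to 2.35. Without mouse 2 and with the block, 3 relatives, 8 erythroid and 4 megakaryocyte targets were called; megakaryocyte calls were 3 with the block, 1 without mouse 2, 1 without mouse 3 with the block, 0 without mouse 1 with the block, 0 with the block and library sizes alone, 5 in DESeq2, and 8 higher and 1 lower in DESeq2 with the block. The cause was not tested. With 3 libraries a group, the spread between mice limits what could be detected.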
